A study of Mus musculus with 4 samples.

Results

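The 55 genes described here follow Usp2 along mouse chromosome 9 in the direction of Hyou1, from Hyou1 at place 14 to Ppp2r1b at place 102 among the measured genes counted from Usp2. They were found by symbol among the 19934 genes that an expression array measured in mouse kidney, and all 55 were measured. The direction, the ends and the members were chosen with the differences between genotypes already known, so these differences are a description. Where counts at a threshold of the fit across all genes, or its confidence intervals, are given for members, they describe sizes and spread and are no test of the members. The same span holds 34 other measured genes, and 13 more lie between Usp2 and Hyou1.

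Expression was measured in whole kidney of C57BL6/N male mice, 12 weeks old, taken at Zeitgeber time 12. Usp2-KO mice lack Usp2, which encodes a protease that removes ubiquitin from other proteins, and wild-type (WT) mice were their littermates. Each genotype is represented by 2 pools, each of RNA from 3 mice, drawn from 6 pairs of littermates, and pools of the same number hold littermates. Strain, sex, age and hour were the same for both genotypes, and the labels name no drug or diet. The labels do not say how the Usp2 allele was made, which cells it was made in or how far it was bred onto the strain.

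Genes that lie near each other on a chromosome are inherited together, so animals selected for a targeted gene also share the DNA beside it. Neighbours need not share a function: this stretch holds the genes of the CD3 chains of the T cell receptor, a cluster of apolipoprotein genes, sodium channel beta subunits and enzymes of several compartments. The labels give no genotypes along the chromosome, so loss of Usp2 and inherited DNA beside it cannot be told apart in these samples.

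Promoter sequences are shown for 5 of the 14 members of largest difference, to show start regions of members that were higher and of members that were lower along the stretch. Of the 55 members 37 had a RefSeq promoter entry. Each sequence is the 250 bases before the gene's start, read 5′ to 3′ on the gene's strand. Capitals mark matches, on either strand, to CACGTG (the E-box bound by clock factors), CCAAT or TATAAA. Treh, Apoa4 and Il18 were higher and Nxpe4 and Alg9 lower in Usp2-KO kidney.
Treh promoter, GRCm38.p6, chr9:44672983-44673232, plus strand: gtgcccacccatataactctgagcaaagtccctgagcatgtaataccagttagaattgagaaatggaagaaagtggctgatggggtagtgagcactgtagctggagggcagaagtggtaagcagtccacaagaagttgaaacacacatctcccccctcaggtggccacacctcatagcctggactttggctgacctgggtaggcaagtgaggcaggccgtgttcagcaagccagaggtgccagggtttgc
Apoa4 promoter, GRCm38.p6, chr9:46240594-46240843, plus strand: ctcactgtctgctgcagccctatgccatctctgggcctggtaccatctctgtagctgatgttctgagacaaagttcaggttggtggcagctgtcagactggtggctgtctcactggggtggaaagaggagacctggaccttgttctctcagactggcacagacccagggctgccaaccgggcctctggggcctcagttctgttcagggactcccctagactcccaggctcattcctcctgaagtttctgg
Nxpe4 promoter, GRCm38.p6, chr9:48361791-48362040, plus strand: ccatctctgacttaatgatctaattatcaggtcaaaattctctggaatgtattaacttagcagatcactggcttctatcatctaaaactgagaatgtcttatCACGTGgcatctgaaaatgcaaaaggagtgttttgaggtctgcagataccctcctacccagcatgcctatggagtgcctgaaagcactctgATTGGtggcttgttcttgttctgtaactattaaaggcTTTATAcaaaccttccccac
Il18 promoter, GRCm38.p6, chr9:50554450-50554699, plus strand: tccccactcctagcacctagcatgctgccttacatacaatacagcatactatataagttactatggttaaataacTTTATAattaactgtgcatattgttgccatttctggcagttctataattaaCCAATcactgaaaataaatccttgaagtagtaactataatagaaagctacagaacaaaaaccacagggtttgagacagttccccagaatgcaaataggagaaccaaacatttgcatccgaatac
Alg9 promoter, GRCm38.p6, chr9:50774975-50775224, plus strand: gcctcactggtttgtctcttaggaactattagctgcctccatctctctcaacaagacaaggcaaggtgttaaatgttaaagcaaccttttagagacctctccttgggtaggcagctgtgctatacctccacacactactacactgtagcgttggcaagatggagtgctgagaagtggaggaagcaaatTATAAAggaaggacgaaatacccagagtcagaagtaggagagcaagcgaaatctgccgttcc

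None of the 3 motifs was found in the windows of Treh and Apoa4. Nxpe4 had 1 match to each motif, Il18 had 1 CCAAT and 1 TATAAA, and Alg9 had 1 TATAAA at 62 bases before its start, and no matches overlapped. Among all 27025 genes with an entry, CACGTG occurred in 6.86%, CCAAT in 37.5% and TATAAA in 14.3%, in windows of the same length. Of the 37 members with an entry, 5 held CACGTG (Apoa5, Nxpe4, Pafah1b2, Rexo2 and Sik3), 11 held CCAAT and 6 held TATAAA. These are matches of letters only. In the reference table the Il18 window lies within the span of Bco2, and the Nxpe4 window within a longer span given for Nxpe4 itself, so both can hold transcribed sequence, and the Nxpe4 start used is not the only one.

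Usp2 itself, which is no member, had log2 values of 11.63 and 11.71 in the WT pools and 7.65 and 7.60 in the Usp2-KO pools. It was lower by 4.04 on the log2 scale, which is 16.5-fold (limma adjusted p = 2.8e-08), and was the 1 gene of 19934 past an adjusted p of 0.05. Values are log2 signals made by the authors with RMA, on which a step of 1 is a doubling. The medians of the arrays lay between 7.44 and 7.46. Of the marker lists for the tissue, the 6 proximal tubule genes had mean log2 values of 11.94 to 14.05. All 4 adipocyte markers were lower in Usp2-KO kidney, with summed linear signals of 867 and 834 in WT and 519 and 794 in Usp2-KO kidney; their part in the members' values was not tested. With 4 arrays the precision of each difference is limited, and a pool averages over its mice. A p-value rests only on the spread between pools, which the fit draws in part from all genes. No detection call comes with the values, so a low signal cannot be told from background, and signals of different genes are not compared with each other.

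The members differed between the genotypes in both directions. In Usp2-KO kidney 32 were higher and 23 lower, and the median difference was 0.03, but the median absolute difference was 0.17, against 0.07 over all genes tested. An absolute difference of at least 0.30 was seen in 13 of 55 members, against 1.73% of all genes. The pools of the 2 genotypes did not overlap for 38 members, 22 of them higher and 16 lower. Over all genes the share without overlap was 38.9%, with 19.8% higher and 19.1% lower. At an unadjusted p under 0.01 in the limma fit there were 18 members, 10 higher and 8 lower, against 2.57% of all genes (1.62% higher and 0.953% lower). At an adjusted p under 0.05 there were 0 members, against 0.00502% of all genes, and 26 at an unadjusted p under 0.05, against 9.11% of all genes. With the littermate pools as a block, 9 members passed the adjusted threshold, against 0.768% of all genes: Hyou1, Trappc4, Mpzl2, Apoa4, Nxpe2, Nxpe4, Il18, Bco2 and Alg9. Nothing is read from these shares, since the same differences chose the stretch. Without WT pool 1 or without WT pool 2 the count at an unadjusted p under 0.01 was 9 in each case.

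**Figure D1:**
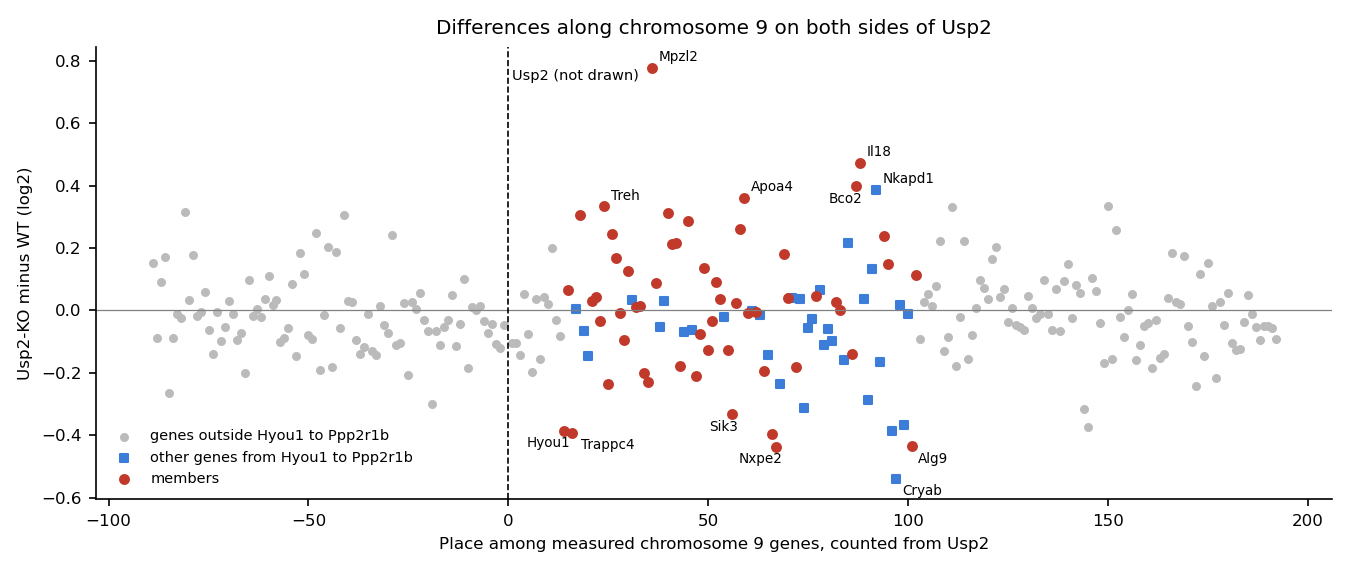
Usp2-KO minus WT difference (log2, mean of 2 pools per genotype) against the place of each measured gene on chromosome 9, counted from Usp2, which lies at -4.04 and is not drawn. Members (red circles) and the other 34 genes from Hyou1 to Ppp2r1b (blue squares) reach 0.78 and -0.54, with genes on either side of the span in grey.

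From Hyou1 to Mpzl2, 8 of 23 measured genes had an unadjusted p under 0.01, then 3 of 22 from Mpzl3 to Apoc3, 4 of 22 from Apoa4 to Drd2 and 8 of 22 from Ankk1 to Ppp2r1b (against 2.57% of all genes). At an unadjusted p under 0.05 the same 4 segments held 8, 8, 8 and 10 genes, against 9.11% of all genes, so the counts were more alike there, and a difference between segments was not tested. The sum of 23 at 0.01 was 14 without WT pool 1 and 12 without WT pool 2. Of the 13 genes between Usp2 and Hyou1, which follow the targeted gene directly on this side, 0 did (limma), 2 had an unadjusted p under 0.05, and their differences lay between -0.20 and 0.20. Just before the first member, Dpagt1 differed by 0.20, H2ax by -0.03 and Vps11 by -0.08, and the members that follow them, Hyou1, Slc37a4 and Trappc4, by -0.39, 0.06 and -0.39. At the far end the last members Alg9 and Ppp2r1b differed by -0.44 and 0.11, and the next genes Sik2, Layn and Hoatz by -0.09, 0.03 and 0.05. In the 89 measured genes beyond Ppp2r1b 4 had an unadjusted p under 0.01, and in the 89 on the other side of Usp2 2 did. The median absolute difference was 0.07 in each of these flanks and 0.13 from Hyou1 to Ppp2r1b. For the 34 genes of that span that are no members it was 0.07. Nothing is read from the contrast with the flanks, since the ends of the stretch were chosen with these differences known.

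Of the members that lead the stretch from Usp2, Hyou1 and Trappc4 belong to the secretory pathway, and Slc37a4 was grouped with them. Hyou1, a chaperone of the endoplasmic reticulum of the Hsp70 family, had log2 values of 10.60 and 10.43 in the WT pools and 10.13 in each Usp2-KO pool. It was lower by 0.39 (SE 0.08, 95% confidence interval -0.57 to -0.20), or 1.31-fold, with no overlap between the genotypes. Trappc4, a subunit of the TRAPP tethering complex of Golgi traffic, had 10.01 and 10.21 in WT and 9.78 and 9.66 in Usp2-KO kidney. Its difference was -0.39 (SE 0.09), with -0.23 in the pool 1 littermates and -0.55 in the pool 2 littermates, so the pools did not overlap but the littermate pairs differed in size. Slc37a4, the glucose 6-phosphate carrier of the endoplasmic reticulum, lies between them and had 12.43 and 12.44 in WT and 12.50 in each Usp2-KO pool, a difference of 0.06.

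Alg9, at the far end of the stretch, encodes a mannosyltransferase that builds the lipid-linked precursor of N-glycans; its promoter is the last of those printed. Its log2 values were 10.17 and 10.22 in WT and 9.83 and 9.69 in Usp2-KO kidney. The difference was -0.44 (SE 0.08, 95% confidence interval -0.61 to -0.26), the second most negative of the members, and the pools did not overlap. Arcn1, the delta subunit of the COPI coat, went the other way, with 9.80 and 9.78 in WT and 9.98 and 10.09 in Usp2-KO kidney (0.24, SE 0.07). Bace1, the beta-secretase, differed by 0.27 in the pool 1 littermates and 0.01 in the pool 2 littermates, and Pcsk7, a proprotein convertase, by 0.09 and -0.16.

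Mpzl2, an adhesion protein of epithelia, had the largest difference of the 55 members. Its log2 values were 8.80 and 9.09 in the WT pools and 9.79 and 9.66 in the Usp2-KO pools. It was higher by 0.78 (SE 0.10, 95% confidence interval 0.54 to 1.01), or 1.72-fold, and the genotypes did not overlap, although the littermate differences were 0.99 and 0.57. Mpzl3, its paralogue and next neighbour, had 7.68 and 7.71 in WT and 7.77 and 7.79 in Usp2-KO kidney, a difference of 0.09. On its other side lies Cd3e, which was lower by 0.23, so adjacent genes differed in opposite directions.

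Nxpe4 and Nxpe2, neighbours in the stretch and members of a family named after neurexophilin, were both lower. Nxpe2 had log2 values of 6.17 and 6.09 in WT and 5.76 and 5.62 in Usp2-KO kidney, a difference of -0.44 (SE 0.08), the most negative of the members. Nxpe4 had 5.84 and 5.99 in WT and 5.51 and 5.53 in Usp2-KO kidney, a difference of -0.40 (SE 0.08). The pools of the genotypes did not overlap for either gene. Both have a mean log2 value below 6 and are left without a value under a filter at 6. Of the other surface proteins, the adhesion molecules Dscaml1 and Cadm1 were lower by 0.21 and 0.19 without overlap, and Ncam1 had 7.87 and 7.81 in WT and 7.83 and 7.85 in Usp2-KO kidney.

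Il18 and Bco2 are neighbours near the far end of the stretch and were both higher. Il18, a cytokine of the interleukin 1 family, had log2 values of 6.52 and 6.64 in WT and 7.15 and 6.95 in Usp2-KO kidney. The difference was 0.47 (SE 0.09, 95% confidence interval 0.27 to 0.67), or 1.39-fold, with 0.63 and 0.32 in the littermate comparisons. Bco2, a mitochondrial enzyme that cleaves carotenoids, had 7.32 and 7.44 in WT and 7.82 and 7.74 in Usp2-KO kidney, a difference of 0.40 (SE 0.08). All Usp2-KO values of both genes lay above all WT values. Pts, an enzyme of tetrahydrobiopterin synthesis on the other side of Bco2, had 7.95 and 7.93 in WT and 7.82 and 7.79 in Usp2-KO kidney, a difference of -0.14.

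Treh encodes trehalase, an enzyme of the brush border that splits trehalose. It had log2 values of 10.15 and 10.12 in WT and 10.55 and 10.38 in Usp2-KO kidney and was higher by 0.33 (SE 0.08). Dlat, a core enzyme of the pyruvate dehydrogenase complex, had 10.09 and 10.12 in WT and 10.38 and 10.31 in Usp2-KO kidney (0.24, SE 0.07). The genotypes did not overlap for either. Rexo2, an oligoribonuclease, was higher by 0.18 (0.12 without Usp2-KO pool 2) and Nnmt, which methylates nicotinamide, lower by 0.18, both without overlap. The remaining metabolic members were Ttc36 (12.99 and 12.94 in WT, 12.91 and 12.84 in Usp2-KO kidney), Pafah1b2, whose difference was -0.13 with overlapping pools (-0.04 without WT pool 2), and Sidt2, whose difference was 0.04.

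The apolipoprotein genes lie side by side, and their products carry lipid in the blood. Apoa4 had log2 values of 8.60 and 8.65 in WT and 9.03 and 8.95 in Usp2-KO kidney and was higher by 0.36 (SE 0.07, 95% confidence interval 0.20 to 0.53). Apoc3, which inhibits lipoprotein lipase, had 9.89 and 9.98 in WT and 10.22 and 10.18 in Usp2-KO kidney (0.26, SE 0.07). In both the genotypes were apart. Their direct neighbours overlapped between the genotypes: Apoa1, the main protein of high-density lipoprotein, differed by 0.02 and Apoa5 by -0.01. Liver markers that are no members, Alb, Apob and Ttr, were all lower in Usp2-KO kidney, by 0.47, 0.10 and 0.08. The Alb values were 9.37 and 8.56 in WT and 8.59 and 8.40 in Usp2-KO kidney, and without WT pool 1 its difference was -0.07. Their summed linear signal was 7953 and 7687 in WT and 7209 and 7249 in Usp2-KO kidney; their part in the apolipoprotein values was not tested.

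**Figure D2:**
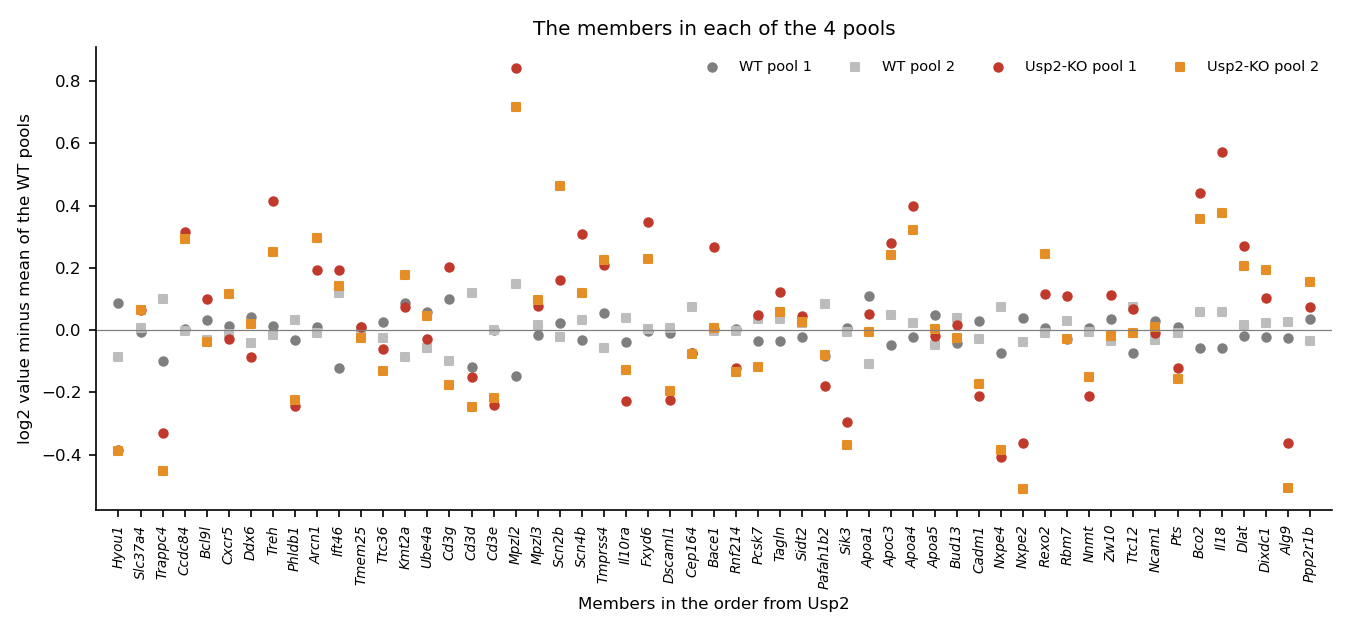
Each of the 55 members in the order from Usp2 (horizontal axis) with its log2 value in every pool minus the mean of the WT pools (vertical axis). The Usp2-KO pools (red and orange) stand apart from the WT pools (grey) for 38 members, where 38.9% of all genes tested show no overlap. Mpzl2 lies 0.84 and 0.72 above the WT mean and Alg9 0.36 and 0.51 below it.

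The immune members did not differ in a common direction. Cd3e had log2 values of 8.15 in each WT pool and 7.91 and 7.94 in Usp2-KO kidney, a difference of -0.23 (SE 0.07). Cd3d differed by -0.03 in the pool 1 littermates and -0.37 in the pool 2 littermates, and Cd3g by 0.10 and -0.08. Cxcr5, a chemokine receptor of B cells, had 5.32 and 5.29 in WT and 5.27 and 5.42 in Usp2-KO kidney, and Il10ra, a chain of the interleukin 10 receptor, differed by -0.18 without overlap. In whole kidney fewer cells of a type and less RNA per cell cannot be told apart. Of 6 other T cell markers 3 were higher and 3 lower, and their summed linear signal was 566 and 569 in WT and 567 and 561 in Usp2-KO kidney. The 3 other B cell markers summed to 254 and 258 in WT and 249 and 254 in Usp2-KO kidney.

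Members of ion transport and the membrane were mostly higher. Fxyd6, of the family that modulates the sodium pump, had log2 values of 8.93 in each WT pool and 9.28 and 9.16 in Usp2-KO kidney, a difference of 0.29 (SE 0.07). Scn2b, a beta subunit of voltage-gated sodium channels, had 6.79 and 6.74 in WT and 6.93 and 7.23 in Usp2-KO kidney (0.31, SE 0.10). The groups did not overlap, but leaving out Usp2-KO pool 2 gave a Scn2b difference of 0.16, and leaving out Usp2-KO pool 1 gave 0.46. Scn4b, another beta subunit, had littermate differences of 0.34 and 0.09, and its mean difference was 0.12 once Usp2-KO pool 1 was left out. Tmprss4, a membrane serine protease, was higher by 0.22 without overlap, and Tmem25 differed by -0.01. Markers of the distal nephron, none of them members, also differed, though not all in 1 direction. The distal convoluted and connecting tubule list had 2 of 4 higher, Trpv5 by 0.55 and Calb1 by 0.44. The other 2, Slc12a3 and Pvalb, differed by -0.06 and -0.08. The summed linear signal of this list was 12366 and 12262 in WT and 12954 and 12889 in Usp2-KO kidney. All 4 principal cell markers were higher, with sums of 4314 and 4373 in WT and 4936 and 4673 in Usp2-KO kidney. Of the intercalated cell markers 3 of 4 were higher, Slc26a4 by 0.30, with sums of 2519 and 2456 in WT and 2764 and 2682 in Usp2-KO kidney. In all 3 lists the sums did not overlap between the genotypes, and their part in the values of the channel genes was not tested. Of nerve and glia markers that are no members 1 was measured, S100b, which differed by -0.12.

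Sik3, a salt-inducible kinase, was lower, with log2 values of 11.08 and 11.07 in WT and 10.78 and 10.70 in Usp2-KO kidney. The difference was -0.33 (SE 0.07), and both littermate differences, -0.30 and -0.37, exceeded the spread between pools of a genotype. Its neighbour Pafah1b2 differed by -0.13. Rnf214, a RING finger protein, was lower by 0.13 without overlap, while Ube4a, a ubiquitin ligase, differed by 0.01 and Ppp2r1b, a scaffold subunit of protein phosphatase 2A, by 0.11 (0.07 without Usp2-KO pool 2).

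Genes of the nucleus and RNA were the group with the least difference, with a median absolute value of 0.04 over 7 members. Ccdc84 was the exception, with log2 values of 8.13 and 8.12 in WT and 8.44 and 8.42 in Usp2-KO kidney. It was higher by 0.30 (SE 0.07), with 0.31 and 0.30 in the littermate comparisons. The RNA helicase gene Ddx6 had 12.09 and 12.01 in WT and 11.96 and 12.07 in Usp2-KO kidney. The histone methyltransferase gene Kmt2a differed by -0.01 and 0.26 in the littermate comparisons. Bcl9l, Bud13, Rbm7 and Zw10 had absolute differences of at most 0.05, and their pools overlapped.

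Among genes of cilium and cytoskeleton, Phldb1 was lower by 0.23 (SE 0.07), with 8.82 and 8.89 in WT and 8.61 and 8.63 in Usp2-KO kidney. It lies between Treh and Arcn1, which were both higher. Dixdc1 was higher by 0.15, Ift46, of the intraflagellar transport machinery, by 0.17 and Tagln, an actin-binding protein of smooth muscle, by 0.09, without overlap. The Ift46 difference was 0.31 in the pool 1 littermates and 0.02 in the pool 2 littermates, and those of Tagln were 0.16 and 0.02. Of 4 other smooth muscle markers all were higher, and their summed linear signal was 2966 and 3254 in WT and 3377 and 3341 in Usp2-KO kidney; their part in the Tagln value was not tested. Ttc12 differed by 0.03. Cep164, a protein of the centriole, is the 1 member measured by more than 1 entry of the array. The entry used, with 7.77 and 7.92 in WT and 7.77 in each Usp2-KO pool, differed by -0.07, and the other, with 7.87 and 7.75 in WT and 7.45 and 7.34 in Usp2-KO kidney, by -0.42.

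**Figure D3:**
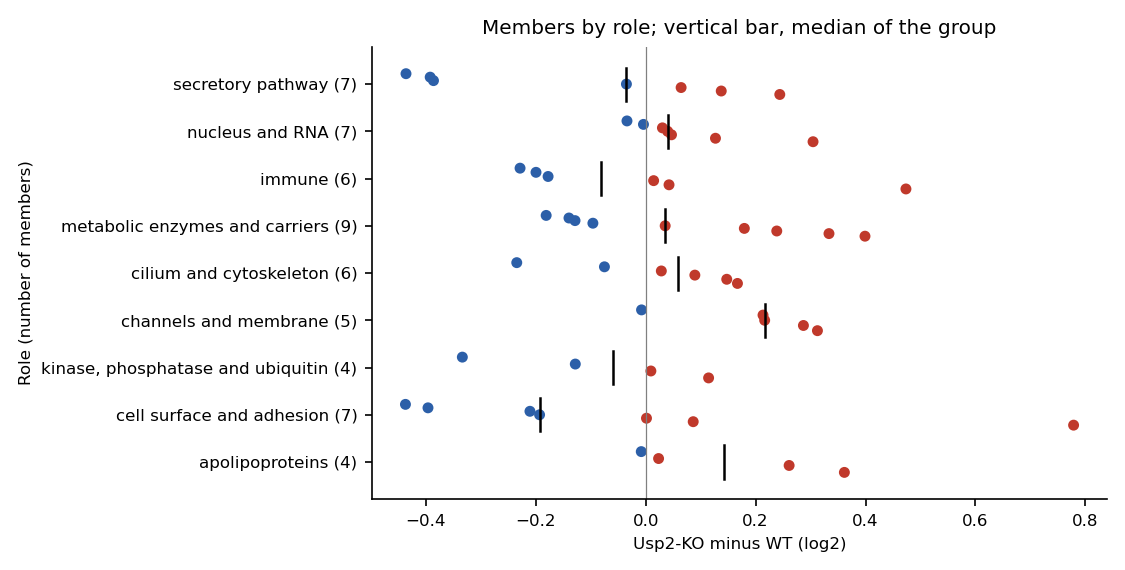
Usp2-KO minus WT difference (log2) of each member (point, red where higher and blue where lower in Usp2-KO kidney), grouped by role on the vertical axis, with a bar at the group's median. Each role holds members on both sides of 0, and the absolute median is largest for channels and membrane genes (0.22).

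The littermate differences of pool 1 and pool 2 had the same sign for 40 of 55 members, against 51.5% of all genes. Nothing is read from this share, since choosing members by their mean difference raises it by itself. The spread between pools of a genotype was not larger in the members, with a median SD of 0.05 against 0.06 over all genes.

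**Figure D4:**
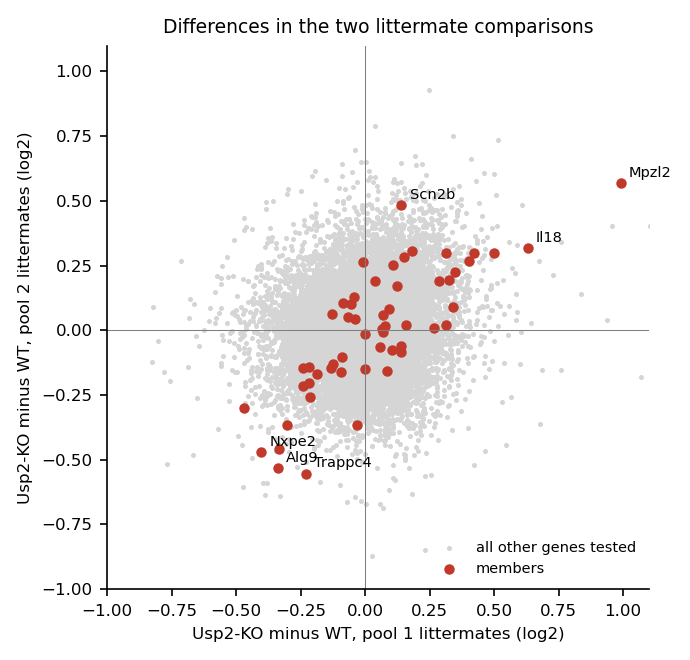
Usp2-KO minus WT difference (log2) in the pool 1 littermates (horizontal axis) and the pool 2 littermates (vertical axis), for the members (red) and all other genes tested (grey; Usp2 and 5 more genes lie outside the axes). Of the members, 40 lie where both differences have the same sign, with Mpzl2 at 0.99 and 0.57.

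Of the 34 other measured genes of the same span, 5 had an unadjusted p under 0.01, 1 higher and 4 lower, against 2.57% of all genes, and their median absolute difference was 0.07. Cryab, a small heat shock protein, had log2 values of 11.14 and 11.17 in WT and 10.67 and 10.56 in Usp2-KO kidney, a difference of -0.54 (SE 0.07), larger than that of any lower member. Hspb2, another small heat shock protein beside it, differed by 0.02. Nkapd1 had 7.34 and 7.22 in WT and 7.69 and 7.64 in Usp2-KO kidney, a difference of 0.39 (SE 0.08). The gene models 2310030G06Rik and 1110032A03Rik were lower by 0.39 and 0.37, and Htr3a, a serotonin receptor subunit, by 0.31, which without Usp2-KO pool 1 was -0.19. The pools of the genotypes did not overlap for any of these 5, and over all genes 38.9% did not overlap. Nothing is read from this, since the 5 were named for the size and sign of their differences. In 10 adjacent pairs of genes from Hyou1 to Ppp2r1b, both differences were at least 0.20 in size. They had the same sign in 7 pairs and opposite signs in 3, which were Treh with Phldb1, Phldb1 with Arcn1, and Cd3e with Mpzl2.

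Genes that work with the members but are not members were examined in 10 lists of partners, 123 genes in all. Their median absolute difference was 0.06, against 0.07 over all genes. At an unadjusted p under 0.05 (limma) there were 7 of 123, against 9.11% of all genes, and 0 passed an adjusted p of 0.05. At an unadjusted p under 0.01 there was 1 of 123, against 2.57% of all genes. That gene was Dld, which encodes the dihydrolipoamide dehydrogenase of the pyruvate dehydrogenase complex, with 9.21 ± 0.04 (SD, n = 2 pools) in WT and 9.60 ± 0.08 in Usp2-KO kidney. It was higher by 0.38 (SE 0.08, limma adjusted p = 0.286), in both littermate pairs, and its limma adjusted p with the littermate block was 0.020. That blocked fit has 1 residual degree of freedom. In it 153 genes passed an adjusted p of 0.05, against 1 gene with the pool numbers crossed. In the pyruvate dehydrogenase complex, Pdhb also differed by 0.24 (limma adjusted p = 0.393) and Pdha1 by 0.17 (limma adjusted p = 0.517), and the list's 10 genes had a median difference of 0.10.

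Partners of Hyou1, the chaperones and regulators of the unfolded protein response, were higher in 16 of 20, where Hyou1 was lower, with a median of 0.04. The littermate differences had the same sign in 9 of these 20, against 51.5% of all genes. Hsp90b1 differed by 0.27, Dnajb11 by 0.22 and Pdia3 by 0.18, and in the pool 1 littermates these differences were 0.08, 0.01 and 0.04. For N-glycan assembly, the list of Alg9, 10 of 18 genes were higher and the median was 0.02. Dpagt1, which lies between Usp2 and Hyou1, differed by 0.20, Alg13 by 0.11 and Alg6 by 0.10. The 13 other TRAPP subunits measured had a median of 0.01, with Trappc2 at 0.13, Trappc6b at 0.12 and Trappc13 at 0.11. The interleukin 18 pathway had a median of -0.06 over 13 genes, with Casp4 at 0.17 and Gsdmd and Il18rap at -0.14 each.

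The adhesion genes listed as partners of Mpzl2 and Mpzl3 had a median of 0.03 over 10 genes, with Epcam at 0.13, Nectin1 at -0.12 and Jam2 at 0.10. Nectin1 lies close to Usp2 on chromosome 9, on the side away from the members. Apolipoproteins and lipid transport genes elsewhere had 8 lower among 11 measured and a median difference of -0.04. Apom differed by 0.24, Apoe by -0.16 and Apoh by 0.13. The COPI coat had a median of 0.00 over 9 genes, with Copb2 at 0.15, Cope at 0.06 and Copa at -0.05. The genes listed with Kmt2a are not all subunits of its complex, and Hoxa9, Meis1 and the related methyltransferase gene Kmt2c are among them. They had a median of -0.01 over 10, with Kmt2c at 0.15, Hoxa9 at 0.12 and Rbbp5 at -0.05. Genes of glucose 6-phosphate handling had a median of 0.01 over 9, with Slc37a2 at -0.14, Slc2a2 at 0.07 and G6pc3 at -0.06. The littermate differences of some of these genes had opposite signs, with -0.05 and 0.35 for Kmt2c, -0.02 and 0.28 for Epcam, 0.18 and -0.06 for Cope, and 0.12 and -0.24 for G6pc3.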

How the data were processed

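The deposited table holds log2 expression values of 28270 array rows in 4 arrays, which the authors computed by RMA, according to the submitters' processing notes. RMA subtracts background, gives all arrays 1 distribution and combines the probes of a row. The program, its version and any removal of rows are not given in the sources used here. The arrays are Affymetrix whole-transcript arrays, loaded from 300 ng of RNA of each pool, per the labels.

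Rows with exactly 1 gene symbol (21780) were kept, and 1617 with several symbols and 4873 not listed were left out. For each gene the row of highest mean over the 4 arrays was used, and no filter on signal was applied. Gene order comes from a RefSeq table of GRCm38.p6 matched by gene identifier. The array's files name no build, so coordinates are given only for RefSeq's promoter sequences of that build. The members, lists and alternatives were chosen with earlier results of these data known.

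Usp2-KO minus WT was fitted across all genes with limma 3.58.1 in R 4.3.3 (lmFit, eBayes; 2 pools against 2) and adjusted by Benjamini-Hochberg. The fit was run on simulated data with planted differences, each larger than that of every member except Mpzl2. Its recovery of smaller differences was not tested. An exact permutation of 2 against 2 pools cannot give a p below 0.333. SEs and confidence intervals use the fit's moderated variance, with 8.87 degrees of freedom. The series' design text pairs the pools by littermates, and the deviations of same-numbered pools correlated at -0.121 across genes. The blocked fit keeps 1 residual degree of freedom against 90.6 from the prior, and its variances are therefore almost equal for all genes.

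Values per pool are given for the 14 members of largest absolute difference whose littermate differences share a sign, for the 3 highest and 3 lowest members by signal and for others chosen after their values were seen. Non-members of the span are named at an absolute difference of at least 0.3 with 1 sign in both pairs, and in each partner list the 3 genes of smallest p. Summed linear signals are sums of 2 to the power of the log2 value. Of the 16 marker lists, those that hold a member and those of proximal tubule, distal nephron and adipocyte are reported above. In the others, all 5 urothelium, 4 endothelium and 3 exocrine pancreas markers measured were lower in Usp2-KO kidney by mean, as were 5 of 6 macrophage markers. In the pool 1 littermates, however, every endothelium and macrophage marker was higher in Usp2-KO kidney, as were Upk1a, Upk1b and Upk2 of urothelium. Of thick ascending limb and podocyte markers 2 of 3 each were higher. Among these lists only the exocrine pancreas sums did not overlap (395 and 392 in WT, 363 and 359 in Usp2-KO kidney). Their part in the members' values was not tested. Alternatives were the block, an intensity trend or robust prior in eBayes, a minimum mean log2 value of 6, the mean of all rows, repeated quantile normalization, median centring, other thresholds and each pool left out.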

Additional observations from a re-analysis of the deposited data

How the results depend on the processing

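With the littermate pools as a replicate block, 153 genes passed an adjusted p of 0.05 against 1 without it, 9 members against 0, and 2 partner genes against 1 at an unadjusted p under 0.01. With the pool numbers crossed, a setting chosen after seeing the data, 1 gene, 0 members and 3 partner genes were counted in the same way. With an intensity trend the counts were 18 genes, 2 members and 4 partner genes, and with a mean log2 value of at least 6, which drops 5 members (Cxcr5, Cd3g, Cd3d, Nxpe4 and Nxpe2), 7 genes, 1 member and 3 partner genes. At an adjusted p under 0.10 there were 2 genes and 0 members. At an unadjusted p under 0.05 there were 1815 genes, 36 from Usp2 to Ppp2r1b and 7 partner genes. With each pool left out in turn, 1 to 2 genes passed an adjusted p of 0.05 and 0 members did. The counts at an unadjusted p under 0.01 were then 321 to 546 genes, 9 to 13 members against 18, 12 to 19 genes from Usp2 to Ppp2r1b against 23, and 1 to 3 partner genes. Fewer arrays leave fewer degrees of freedom in these fits. The median absolute difference of the members was 0.15 with repeated quantile normalization and 0.15 to 0.18 with a pool left out. The cause of the other changes was not tested. The 14 members of largest difference kept their sign in every setting that gave them a value, as did 41 of all 55 members. The 14 were chosen for 1 sign in both littermate pairs, so nothing is read from this. Of the settings that kept all pools, only repeated quantile normalization and median centring could change the difference of a gene with 1 row. Under these, of those 14 members, Cryab, Nkapd1 and Usp2, only Ccdc84 moved by more than the SD between its littermate comparisons. Its difference was 0.28 with repeated quantile normalization against 0.30.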
